A study of Mus musculus with 8 samples.

Results

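Interferon-stimulated genes are the genes that a cell switches on when it senses an interferon, and 39 of them were followed here through RNA-seq libraries of mouse bone marrow stromal cells. The 39 were listed by name, with earlier results of these data known, and were matched by symbol to 39 of the 49315 genes in the deposited count tables. The cells came from bone marrow of wild-type C57BL/6J mice, whose age is 6 weeks in the sample labels, while the methods give the substrain C57BL/6JJcl and a wider range of age. Crushed and collagenase-digested bone gave cells negative for CD31, CD45 and Ter119, the lineage-negative fraction, and surface markers divided these into 7 sorted populations named clusters 1 to 7. As read from the sorting plots, cluster 1 was CD24- CD39+ Sca-1+, cluster 2 Ly-6C- CD39- CD24-, cluster 3 Ly-6C+ CD24+ and negative for CD39 and CD54, cluster 4 Ly-6C- CD54+ CD24-, cluster 5 CD54+ CD121b- and negative for CD24 and Ly-6C, cluster 6 CD24+ Sca-1- CD39-, and cluster 7 CD54- Sca-1+ and negative for CD24 and Ly-6C. An eighth library was labelled as input bone marrow cells, and its sorting is not given in the sources used here. No interferon treatment or infection is described for any group, and the sorted cells went through tissue digestion and staining before lysis. Each population had 1 library, the number of mice behind a library is not given, and no difference below has a replicate check or a p-value.

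Interferons are secreted proteins that bind paired receptors on the cell surface. Receptors for type I interferons activate the kinases Jak1 and Tyk2. Their signal leads to a complex with Stat2 and Irf9 that binds the interferon-stimulated response element in the promoters of target genes. Interferon gamma has a receptor of its own, and many of its targets carry the gamma-activated site. The products of the target genes block steps of virus growth, sense viral nucleic acid, cut proteins into peptides for MHC class I, or raise and limit the response itself. Low levels of many of these genes are known in resting cells, including stem and stromal cells.

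The response element was looked for in promoter windows because it is known to drive many of these genes. Of the 39 genes, 30 had a window in RefSeq GRCm38.p6, reaching from 250 bases before to 50 bases after the gene's start. The 9 genes without one here were Oas2, Mx1, Mx2, Usp18, Parp14, Dhx58, Zbp1, Rtp4 and Ifi27l2a. The core GAAANNGAAA, searched on both strands, was found in 14 of these 30 genes (46.7%), against 3.99% of the 27025 genes with such a window. Because the genes were listed as interferon-stimulated, this share describes the list. The gamma-activated site TTCNNNGAA, which reads the same on both strands, was in 7 of the 30 (23.3%), against 9.55% of all genes. A match is a description of the letters and not a bound site. For 5 genes the 200 bases before the start are printed 5′ to 3′ on the strand of the gene, with the response element core in capitals. These genes were chosen because their levels, described below, follow unlike patterns across the libraries. Ifit1 and Ifit3 lie close together on chromosome 19, Isg15 was highest in cluster 5, Gbp2 in cluster 4 and Bst2 in cluster 1 under the total count.
Ifit1: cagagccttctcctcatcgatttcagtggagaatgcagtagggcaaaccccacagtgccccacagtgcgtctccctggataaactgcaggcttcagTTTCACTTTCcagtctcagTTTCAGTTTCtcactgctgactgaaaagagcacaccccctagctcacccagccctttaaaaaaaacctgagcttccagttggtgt
Ifit3: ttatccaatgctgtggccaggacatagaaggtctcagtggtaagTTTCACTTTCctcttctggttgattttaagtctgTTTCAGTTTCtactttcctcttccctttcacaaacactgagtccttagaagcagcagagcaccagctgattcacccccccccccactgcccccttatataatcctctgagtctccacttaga
Isg15: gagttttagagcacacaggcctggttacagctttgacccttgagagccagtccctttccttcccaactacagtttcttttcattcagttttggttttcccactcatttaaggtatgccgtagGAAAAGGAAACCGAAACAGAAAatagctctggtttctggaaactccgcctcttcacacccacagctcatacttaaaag
Gbp2: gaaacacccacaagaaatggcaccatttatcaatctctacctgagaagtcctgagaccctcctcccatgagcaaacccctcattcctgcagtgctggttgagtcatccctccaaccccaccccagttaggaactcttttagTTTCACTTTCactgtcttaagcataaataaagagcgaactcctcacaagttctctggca
Bst2: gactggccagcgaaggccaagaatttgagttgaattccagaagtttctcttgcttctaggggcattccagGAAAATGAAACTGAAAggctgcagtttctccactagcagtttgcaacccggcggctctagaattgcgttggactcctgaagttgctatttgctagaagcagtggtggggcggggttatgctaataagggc
The Ifit1 window is chr19:34640689-34640888 on the plus strand, with 2 cores 104 and 85 bases before the start on the opposite strand. The Ifit3 window is chr19:34583329-34583528 on the plus strand, with 2 cores 156 and 122 bases before the start on the opposite strand. The Isg15 window is chr4:156200819-156201018 on the minus strand and holds 3 overlapping cores, from 78 to 66 bases before the start. The Gbp2 window is chr3:142620463-142620662 on the plus strand, with 1 core 59 bases before the start on the opposite strand. The Bst2 window is chr8:71537473-71537672 on the minus strand, with 2 overlapping cores 130 and 124 bases before the start. Each of the 5 printed windows holds the element core. That the levels of these genes did not share an order across the 7 sorted libraries follows from how they were chosen.

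Levels are given as RPKM, the reads on a gene per kilobase of its exons, scaled to an equal number of reads on genes in each library. Clusters 1 to 7 had total counts of 24205863, 25349917, 27102715, 32549319, 12833648, 31669132 and 33238133, and the input had 20162876. The cluster 5 and input libraries stood apart. In cluster 5, 34.8% of the counts fell on 3 loci (Rn18s-rs5, Lars2 and mmu-mir-689-2), against 10.4% in cluster 2 and 0.188% to 1.91% in the other 6 libraries, and cluster 5 was the lowest of the sorted libraries for 46.3% of the 12360 genes tested, those whose RPKM exceeded 2 in any sorted library. In the input, 3 or more counts were found on 67.8% of 858 olfactory receptor genes, which these tissues should lack. The share was 2.1% in cluster 6 and 28.0% in cluster 5. The TMM method of edgeR, which sets libraries on a common scale through the bulk of their genes, gave the input a factor of 1.60, cluster 5 a factor of 0.740 and cluster 6 a factor of 0.776. Counts that depend on this choice are therefore given under both scalings, and RPKM without further words is scaled by the total count. A run of 7 values for clusters 1 to 7 is given in that order.

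The sorted libraries were not free of blood cell RNA. The summed RPKM of 4 genes of all blood cells (Ptprc, Spi1, Coro1a, Laptm5) was 114, 107, 76.5, 143, 113, 134 and 284 in clusters 1 to 7 and 365 in the input. Ptprc, which encodes the CD45 used to exclude blood cells, was at 2.92, 2.58, 1.69, 2.76, 1.8, 4.02 and 9.26 in clusters 1 to 7 and 13.5 in the input. Cluster 7 and the input were thus highest in these transcripts, while cluster 6 was not lowest. The 12 neutrophil genes, with S100a9 the highest in every library, summed to 15293, 17172, 11403, 18535, 27549, 16018 and 31222 in clusters 1 to 7 and 45265 in the input. The 8 B-lineage genes, with Cd79a, Cd79b or Vpreb3 the highest, summed to 89.2, 121, 43, 77.7, 73.9, 105 and 138 in clusters 1 to 7 and 311 in the input. The 8 T and NK cell genes, with Nkg7 the highest in every library, summed to 30.7, 41, 25.7, 27.9, 32.6, 36.2 and 66.9 in clusters 1 to 7 and 101 in the input. Cluster 7 was highest of the sorted libraries in these 3 lists under the total count, but under TMM cluster 5 was highest for the neutrophil list and cluster 6 for the B-lineage list. In cluster 7 Nkg7 alone was at 60.9 of the 66.9, and the T cell genes Cd3e, Cd4 and Cd8a stayed at or below 0.388. The levels of Cd3d, Klrb1c, Gzma and Ncr1 there are not given singly. Of the T and NK cell genes, Ncr1 was at 0 counts in cluster 1, and Cd4 and Cd8a in cluster 5, while every neutrophil, B-lineage and endothelial gene had at least 3 counts in every library. The 9 endothelial genes, with Esam or Pecam1 the highest, summed to 19.6, 10.6, 15.5, 5.3, 16.8, 3.72 and 13.4 in clusters 1 to 7 and 18.5 in the input, lowest in cluster 6.

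Stromal transcripts were abundant in all 8 libraries. The 11 stromal genes, with Col1a1 or Dcn the highest, summed to 12969, 7353, 19263, 11334, 9682, 24707 and 13530.3 in clusters 1 to 7 and 10866 in the input. Dcn, a matrix proteoglycan of fibroblasts, was at 4542, 1581, 5854, 5726, 1911, 1915 and 6424 in clusters 1 to 7 and 8008 in the input. Pdgfra, which encodes the stromal marker CD140a, was at 28.1, 4.37, 18, 19.8, 7.51, 7.44 and 26.4 in clusters 1 to 7 and 14.1 in the input. In the library labelled as input, Dcn was the highest of the 8 under the total count and the fourth under TMM, and the haemoglobin gene Hba-a1 was the lowest, at 267 against 593 to 30376 in the sorted libraries. All 39 interferon-stimulated genes had at least 3 counts in every library, and the lowest count was 5, for Ifi44 in cluster 5. In these bulk libraries, more cells that carry a transcript and more transcript per cell cannot be told apart.

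Across the set, cluster 6 had the lowest median RPKM and cluster 7 the highest under the total count. The median RPKM of the 39 genes was 3.56, 1.63, 2.60, 2.87, 3.0, 1.24 and 5.08 in clusters 1 to 7 and 4.88 in the input. Of the 39 genes, 38 were lower in cluster 6 than in cluster 7 under both scalings, and the exception was Ifit3. This pair was the lowest and the highest by median of the same genes, so such a lean was built in. Of the 29 genes of the set that were among the 12360 tested, 28 were lower under both scalings. All genes leaned the same way under the total count, where 76.5% of the 12360 genes were lower in cluster 6, but less so under TMM, where 52.7% were. The 39 genes together took 0.0395% of the counts in cluster 6 (95% Wilson interval 0.0389 to 0.0402), 0.0606% in cluster 2, 0.120% in cluster 1 and 0.128% in cluster 4 (0.127 to 0.129). In cluster 7 the share was 0.129% (0.127 to 0.130), which overlapped that of cluster 4, and the input was above both at 0.146% (0.144 to 0.147). Such intervals, like all those below, cover counting error only. Ifitm3 alone held 20570 of the 41607 counts of the set in cluster 4 and 16620 of 42756 in cluster 7. Without Ifitm3 the summed RPKM of the set was 357, 214, 257, 281, 263, 116 and 307 in clusters 1 to 7 and 355 in the input.

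The scale of a library shifts all its genes, so the set was also read relative to the 12360 genes tested. On log2(RPKM + 1), each gene's difference from its median over the 7 sorted libraries was taken, and the median difference of the 12360 genes was subtracted from that of the 39. Under the total count, all genes shifted by 0.16, -0.40, -0.16 and 0.098 in clusters 1, 5, 6 and 7 and by 0.34 in the input. Relative to this, the 39 genes lay at -0.26 in cluster 6 and -0.18 in cluster 2, at 0.33 in cluster 7, 0.27 in the input and 0.40 in cluster 5, and between -0.05 and 0.01 in clusters 1, 3 and 4. Under TMM the values were -0.28, -0.27 and 0.34 in clusters 2, 6 and 7 and 0.30 in the input, while cluster 5 was at 0.10. Cluster 2 was thus as low as cluster 6 there, and the place of cluster 6 as lowest depended on the scaling. The value of cluster 6 was below 0 and that of cluster 7 above 0 under both scalings. That of cluster 2 was 0 when only genes with RPKM above 2 in every library were used, and that of cluster 5 depended on the scaling and was 0 with no filter.

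**Figure D1:**
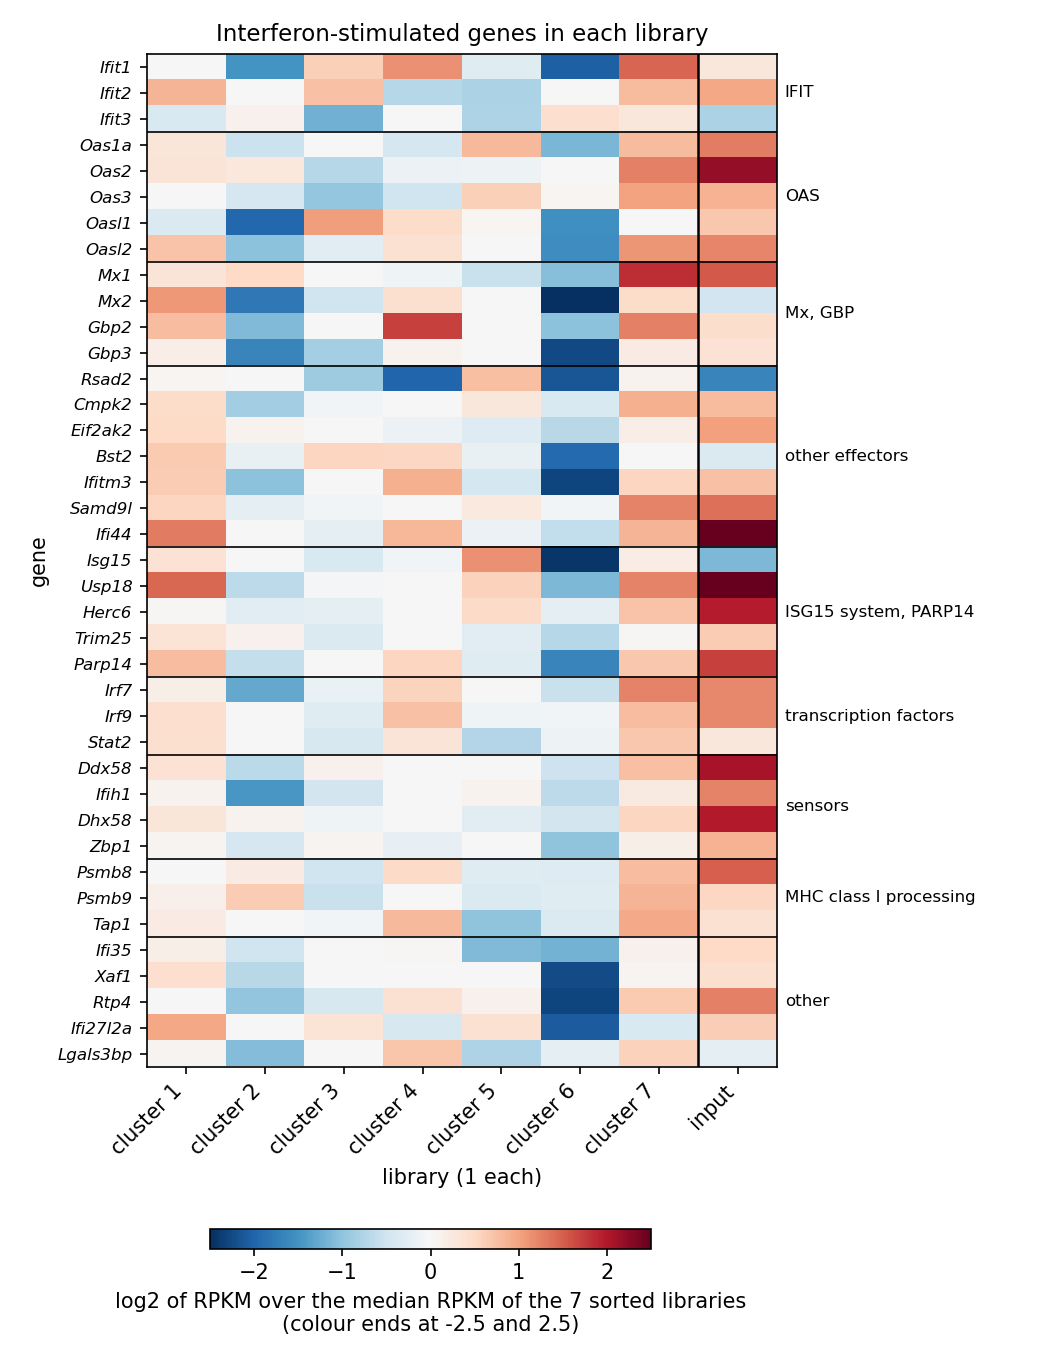
Colours show, for each of the 39 genes (rows, grouped by role) and each library (columns, 1 library each), the log2 of RPKM over the gene's median RPKM in the 7 sorted libraries, and values past either end of the scale take its last colour. The column of cluster 6 is mostly blue, with Ifit3 and Oas3 the genes above their median, the column of cluster 7 is mostly red, and the input column holds both the darkest red, for Ifi44, and blue, for Rsad2 and Isg15.

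Counted by gene, 21 of the 39 were lowest in cluster 6 of the 7 sorted libraries under the total count and 20 under TMM, all 20 being among the 21. Over all genes tested, 25.5% were lowest in cluster 6 under the total count and 17.2% under TMM. Cluster 2 was lowest for 9 of the 39 under either scaling, against 7.25% of all genes under the total count and 16.4% under TMM. Cluster 5 was lowest for 3 of the 39 under the total count and 1 under TMM, where the shares of all genes were 46.3% and 26.9%. At the upper end, 20 of the 39 were highest in cluster 7 under the total count, against 25.3% of all genes, and 14 under TMM, against 17.7%. Cluster 1 was highest for 11 under the total count, against 21.3% of all genes, and for 7 under TMM, against 10.8%. Cluster 5 was highest for 3 under the total count, against 4.73% of all genes, and for 9 under TMM, against 9.8%. These shares are over genes that passed a filter of RPKM above 2 in any sorted library, which 29 of the 39 passed. Of the 29, 15 were lowest in cluster 6 under the total count and 14 under TMM, and 13 and 11 were highest in cluster 7. Likewise, 7 of the 29 were lowest in cluster 2 under either scaling and 3 and 1 in cluster 5, while 8 and 4 were highest in cluster 1 and 3 and 5 in cluster 5.

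The highest over the lowest sorted RPKM of a gene had a median of 3.88 over the 39 genes and 3.90 under TMM. The ratio was above 2 for 37 genes under the total count and 35 under TMM, and its 95% interval lay above 2 for 32. With 1 added to each RPKM, 25 of the 29 genes that exceeded an RPKM of 2 in any sorted library differed over 2-fold between the highest and the lowest library, against 70.6% of all such genes. The other 10 genes did not pass this filter in any sorted library. They were Oas2, Oas3, Mx1, Mx2, Ifi44, Herc6, Parp14, Ifih1, Dhx58 and Zbp1, and counts over the 29 are a description only. Cluster 6 was over 2-fold below the median of the other 6 sorted libraries for 10 genes (Ifit1, Gbp2, Gbp3, Rsad2, Bst2, Ifitm3, Isg15, Ifi35, Rtp4 and Ifi27l2a), against 10.4% of all genes. Cluster 2 was so for 5 genes (Ifit1, Gbp2, Gbp3, Ifitm3 and Lgals3bp), against 4.54%. Cluster 7 was over 2-fold above the median of the other 6 for 4 genes (Ifit1, Gbp2, Samd9l and Irf7) under the total count, against 6.76% of all genes. It was so for 2 under TMM and under DESeq2 size factors, where the share of all genes is not given here.

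**Figure D2:**
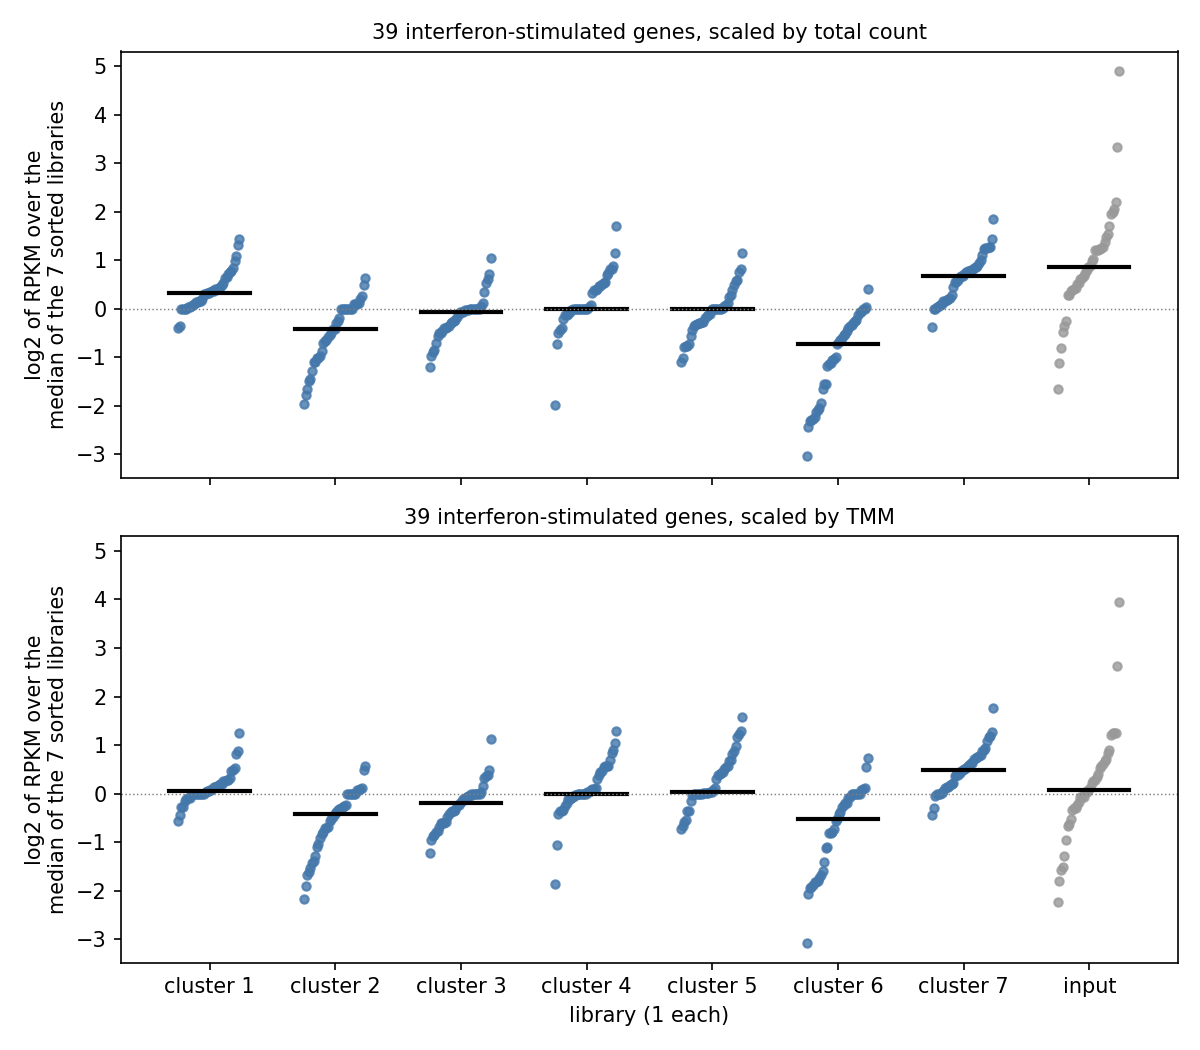
Each point is 1 of the 39 genes, placed by the log2 of its RPKM over its median in the 7 sorted libraries (vertical axis) in each library (horizontal axis), scaled by the total count (top) and by TMM (bottom), and bars mark medians. Cluster 6 had a median fold of 0.608 under the total count and 0.695 under TMM, cluster 7 of 1.60 and 1.40, and the input of 1.82 and 1.06.

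The IFIT proteins bind viral RNA that lacks host cap marks and keep it from being translated. Their genes Ifit2, Ifit3 and Ifit1 lie within chr19:34550694-34650009, yet they followed unlike patterns. Ifit1 was at 2.46, 0.876, 3.74, 5.43, 1.99, 0.594 and 6.69 in clusters 1 to 7 and 3.01 in the input. It was highest in cluster 7 and lowest in cluster 6, a ratio of 11.3 (95% interval 8.43 to 15.3). Ifit3 was at 6.08, 8.52, 3.45, 7.96, 4.69, 10.6 and 9.72 in clusters 1 to 7 and 4.58 in the input. It was highest in cluster 6, where its interval (9.76 to 11.5) overlapped that of cluster 7 (8.94 to 10.6), and lowest in cluster 3. Ifit2 was at 3.56, 1.97, 3.28, 1.2, 1.15, 1.99 and 3.43 in clusters 1 to 7 and 3.9 in the input. Clusters 4 and 5 were lowest for Ifit2, so the 3 genes had their lowest sorted level in 3 different libraries. Ifit3 has a near-identical copy, I830012O16Rik, with 97.8% identity over 1700 of the 1745 transcript bases, and how reads shared by both were counted is not given in the sources used here. The copy was at 1.32, 1.58, 0.295, 1.84, 1.09, 1.66 and 2.15 in clusters 1 to 7 and 0.595 in the input, also above its level in cluster 3 in every other sorted library.

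The OAS proteins sense double-stranded RNA and make a messenger that activates an RNA-cutting enzyme, and the OAS-like proteins modify sensing. The family lies on chromosome 5 and was low in all sorted libraries, with no value above 3.06. Oas1a was at 2.15, 1.19, 1.74, 1.29, 3.06, 0.787 and 3.03 in clusters 1 to 7 and 4.21 in the input. Clusters 5 and 7 were level within counting error, and cluster 6 was lowest. Oasl1 was at 0.966, 0.318, 2.56, 1.7, 1.28, 0.424 and 1.23 in clusters 1 to 7 and 1.96 in the input, and was the only gene of the 39 that was highest in cluster 3 under the total count. Oasl2 was at 1.56, 0.470, 0.787, 1.25, 0.954, 0.327 and 2.06 in clusters 1 to 7 and 2.22 in the input, highest in cluster 7 and lowest in cluster 6. Oas2 reached 0.784 and Oas3 0.877 in cluster 7 (Oas3 was highest in cluster 5 under TMM), and both were lowest in cluster 3. Oas1a shares 96.8% of 1894 of its 1901 transcript bases with Oas1g, so part of its reads may be uncertain.

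Mx1 and Mx2 are dynamin-like proteins that trap virus particles, and guanylate-binding proteins such as Gbp2 and Gbp3 attack the membranes around intracellular pathogens. Gbp2 (chr3:142620602-142638008) was at 11, 2.99, 6.34, 20.8, 6.41, 3.15 and 15.4 in clusters 1 to 7 and 8.67 in the input. Clusters 4 and 7 were high and clusters 2 and 6 low, with a ratio of 6.95 (5.98 to 8.12) between clusters 4 and 2. Gbp3, also on chromosome 3, was at 4.52, 1.28, 2.23, 4.26, 4.03, 0.841 and 4.63 in clusters 1 to 7 and 5.2 in the input. Gbp3 thus shared the low clusters 2 and 6 but not the lead of cluster 4. Mx2 was at 1.83, 0.251, 0.613, 1.14, 0.862, 0.105 and 1.18 in clusters 1 to 7 and 0.618 in the input, and spanned a ratio of 17.4 (9.71 to 34.5), the widest of the 39 genes under the total count and 12.3 under TMM, where Isg15 was wider, and it rested on 12 counts in cluster 6. Mx1 was at 0.317, 0.357, 0.253, 0.236, 0.171, 0.121 and 0.908 in clusters 1 to 7 and 0.735 in the input. Mx1 stood out in cluster 7, where its interval (0.746 to 1.09) lay above those of the other 6 sorted libraries. C57BL/6J and most other inbred strains carry a defective Mx1, so its transcript level does not tell of a working protein. Mx1 and Mx2 share 95.6% identity over 826 bases.

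Among the other effectors, the genes of the membrane proteins Ifitm3 and Bst2 were the most abundant. Ifitm3 (chr7:141009586-141010770), which keeps viruses from fusing with endosome membranes and is known to be high in stem cells, was at 781, 249, 506, 932, 372, 104 and 738 in clusters 1 to 7 and 844 in the input. It was the highest of the 39 genes by RPKM in every library, led in cluster 4 and was 8.98 times lower in cluster 6 (8.60 to 9.39). Bst2 (chr8:71534255-71537456), tetherin, which holds budding virus at the cell surface, was at 45.3, 25.3, 41.8, 41.2, 25.3, 7.52 and 28.8 in clusters 1 to 7 and 22.5 in the input. The interval of cluster 1 (42.5 to 48.2) overlapped those of clusters 3 and 4, cluster 3 was highest under TMM, and cluster 6 (6.55 to 8.59) lay far below the next lowest libraries. Ly6a, which encodes Sca-1, a sorting marker that is itself inducible by interferon, was at 589.8, 78.3, 931, 431, 87, 4.98 and 226 in clusters 1 to 7 and 461 in the input. Clusters 1, 3 and 4 were the highest 3 sorted libraries, and cluster 6 the lowest, for both Bst2 and Ly6a. Cluster 6 was sorted as Sca-1- and clusters 1 and 7 as Sca-1+, so the sort itself bears on the order of Ly6a. The shared order is therefore a description only.

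**Figure D3:**
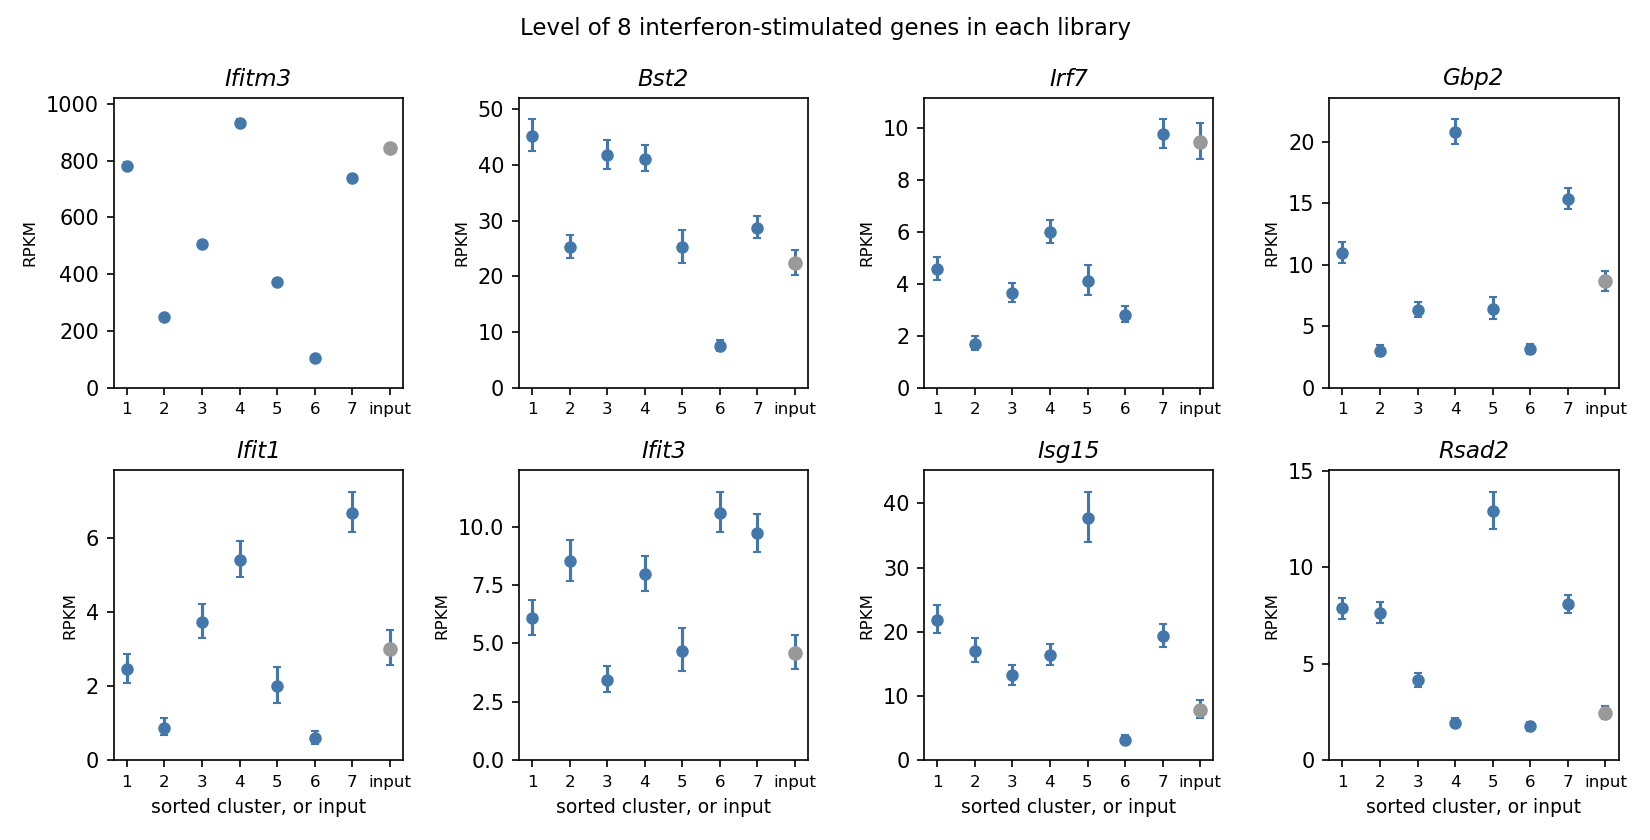
Points give the RPKM (vertical axes, from 0, scaled by the total count) of 8 genes in the 7 sorted libraries and the input (horizontal axes, 1 library each), with 95% exact Poisson intervals that cover counting error only. Ifitm3 and Gbp2 peaked in cluster 4, Bst2 in cluster 1, Irf7 and Ifit1 in cluster 7, Isg15 and Rsad2 in cluster 5 and Ifit3 in cluster 6.

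Rsad2 (viperin, which makes a chain-ending nucleotide that stops virus RNA synthesis) and Cmpk2, which supplies its substrate, are neighbours on chromosome 12. Rsad2 was at 7.87, 7.65, 4.14, 1.92, 12.9, 1.74 and 8.08 in clusters 1 to 7 and 2.44 in the input. It was highest in cluster 5 (12.0 to 13.9) and lowest in clusters 4 and 6, whose intervals overlapped. Cmpk2 was at 3.93, 1.57, 2.73, 2.87, 3.48, 2.19 and 5.32 in clusters 1 to 7 and 4.98 in the input, highest in cluster 7 and lowest in cluster 2. The pair therefore differed in both ends of the order. Eif2ak2, the kinase PKR that stops translation on double-stranded RNA, ranged from 1.24 in cluster 6 to 2.80 in cluster 1, and its ratio of 2.27 was 1.59 under TMM. Samd9l, which restrains growth and translation in blood cells, reached 7.96 in cluster 7 from 2.86 in cluster 2. Ifi44 stayed at or below 0.175 in all sorted libraries, on 5 to 26 counts each.

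Isg15 encodes a ubiquitin-like protein that is joined to other proteins and also secreted. Isg15 (chr4:156199424-156200818) was at 21.9, 17.1, 13.2, 16.3, 37.7, 3.17 and 19.3 in clusters 1 to 7 and 7.87 in the input. Cluster 5 (34.0 to 41.8) was above and cluster 6 (2.5 to 3.97) below each of the others, a ratio of 11.9 (9.26 to 15.4) that was 12.5 under TMM. Ube2l6, the enzyme that carries Isg15 to its targets, had the same ends, at 53.1, 39.1, 26.7, 26.1, 86.2, 8.97 and 45.8 in clusters 1 to 7 and 25.2 in the input. Isg15, Rsad2 and Ube2l6 were all highest in cluster 5, where red cell transcripts were also highest. The summed RPKM of 9 erythroid genes was 14569, 13329, 7337, 2261, 68535, 1596 and 7417 in clusters 1 to 7 and 690.4 in the input, all 9 with at least 3 counts in each library and Hba-a1 the most abundant (Hbb-bs in cluster 7). The part of red cell RNA in the levels of these genes was not tested. Usp18, the protease that removes Isg15 and damps the receptor, was at 3.17, 0.749, 1.15, 1.18, 1.76, 0.543 and 2.79 in clusters 1 to 7 and 11.9 in the input. It was highest of the sorted libraries in cluster 1 (2.76 to 3.62), where its interval overlapped that of cluster 7 (2.46 to 3.15). Herc6, the ligase that attaches Isg15 in mice, ranged from 0.429 to 0.855, and 13.7% of its exon bases overlap another gene on the same strand. Trim25, a ligase that activates the sensor encoded by Ddx58, and Parp14, an ADP-ribosyltransferase, were both highest in cluster 1, at 7.87 and 1.25, and lowest in cluster 6, at 3.75 and 0.234.

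The 3 transcription factors of the set were highest in cluster 7, except that Irf9 was highest in cluster 4 under TMM. Irf7, the factor that amplifies interferon production, was at 4.56, 1.69, 3.64, 6.0, 4.11, 2.81 and 9.76 in clusters 1 to 7 and 9.47 in the input. Cluster 7 (9.22 to 10.3) was 5.77 times cluster 2 (4.89 to 6.84) and lay above every other sorted library. Irf9 was at 5.73, 4.29, 3.49, 7.11, 3.98, 4.1 and 7.36 in clusters 1 to 7 and 9.88 in the input. Stat2 was at 8.24, 6.21, 4.71, 7.73, 3.74, 5.68 and 9.94 in clusters 1 to 7 and 7.58 in the input. Both spanned less than Irf7, as Irf9 had a ratio of 2.11 (1.90 to 2.34) and Stat2 of 2.66 (2.30 to 3.09) between the highest and lowest library. Irf9 was lowest in cluster 3 and Stat2 in cluster 5 (in cluster 3 under TMM), so cluster 6 was lowest for none of the 3.

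The sensors were low in the sorted libraries. Ddx58, which encodes RIG-I and binds uncapped viral RNA, was at 2.07, 1.02, 1.74, 1.59, 1.61, 1.13 and 2.71 in clusters 1 to 7 and 6.71 in the input. Cluster 7 was highest and cluster 2 lowest. Ifih1 (MDA5, a sensor of long double-stranded RNA) reached 0.752 in cluster 7 from 0.237 in cluster 2. Dhx58 (LGP2, which tunes the other sensors) reached 1.79 and Zbp1, a sensor of left-handed nucleic acid, 1.28, both in cluster 7, from 0.897 and 0.573 in cluster 6. Under TMM cluster 5 was highest for Ifih1 and Zbp1.

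Psmb8 and Psmb9 are subunits of the immunoproteasome, and Tap1 carries its peptides to MHC class I. The 3 genes lie together within chr17:34181988-34201454. Psmb8 was at 12.2, 14.1, 8.7, 17, 9.88, 9.76 and 20.9 in clusters 1 to 7 and 34.2 in the input. Psmb9 was at 4.2, 5.92, 2.6, 3.84, 3.0, 3.12 and 6.87 in clusters 1 to 7 and 5.5 in the input. Tap1 was at 4.16, 3.62, 3.47, 6.35, 1.79, 2.82 and 6.96 in clusters 1 to 7 and 4.71 in the input. All 3 were highest in cluster 7 under both scalings, and none was lowest in cluster 6. Psmb9 and Tap1 overlap on opposite strands over 5.79% and 3.87% of their exon bases, and the strand setting of the counts is not given in the sources used here.

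Of the remaining 5 genes, 4 were lowest in cluster 6 under both scalings. Ifi27l2a, a small mitochondrial membrane protein, was at 134, 68.3, 86.8, 52, 89.4, 16.1 and 52.6 in clusters 1 to 7 and 104 in the input, with cluster 1 at 8.35 times cluster 6 (7.27 to 9.62). Rtp4, a chaperone of membrane receptors, was at 3.22, 1.63, 2.44, 4.21, 3.47, 0.652 and 5.08 in clusters 1 to 7 and 7.66 in the input, 7.80 times higher in cluster 7 than in cluster 6 (5.69 to 10.9). Xaf1, which promotes cell death, was at 2.04, 0.934, 1.5, 1.51, 1.53, 0.323 and 1.58 in clusters 1 to 7 and 2.0 in the input. Ifi35, a partner of Nmi, was at 16.4, 10.6, 14.9, 15.2, 6.95, 6.55 and 16 in clusters 1 to 7 and 21.2 in the input. Ifi35 overlaps another gene on the opposite strand over 16.8% of its exon bases, and Rtp4 one on the same strand over 13.9%. Ifi27l2a shares 96.4% identity over 392 of 463 bases with Ifi27l2b, which had at most 6 counts in a sorted library. Lgals3bp, a secreted glycoprotein that binds galectins, was at 21.3, 9.63, 20.5, 33, 12.1, 17.5 and 30.7 in clusters 1 to 7 and 17.2 in the input. Clusters 4 and 7 led for Lgals3bp, and cluster 2 was lowest.

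The input was compared with the sorted libraries under both scalings because they differed most there. Under the total count, 20 of the 39 genes were highest of all 8 libraries in the input, 17 of them with an interval of the ratio above 1. Under TMM, 10 were highest in the input. Of 19088 genes with RPKM above 2 in any of the 8 libraries, 59.8% were highest in the input, and 29.6% of the 16268 that passed the same filter under TMM were. The genes of the set that passed these filters and were highest in the input numbered 18 of 34 and 5 of 29. Ifi44, Herc6, Parp14, Dhx58 and Zbp1 passed the first filter only through the input, so it fixed them as highest there. Dhx58 did so under TMM as well. The shares of all genes also include genes admitted in this way. With 1 added to each RPKM, 4 of the 34 genes of the set past this filter were over 2-fold above the highest sorted library, against 31.2% of all genes. Of these 4, Ifi44 and Dhx58 had passed the filter only through the input. Under TMM 1 gene was so, and the share of all genes there is not given here. Input counts on olfactory receptor genes, which the tissue should lack, were noted above. Of the 39 genes, 26 exceeded the 95th percentile of the olfactory receptor genes in the input, an RPKM of 2.75.

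**Figure D4:**
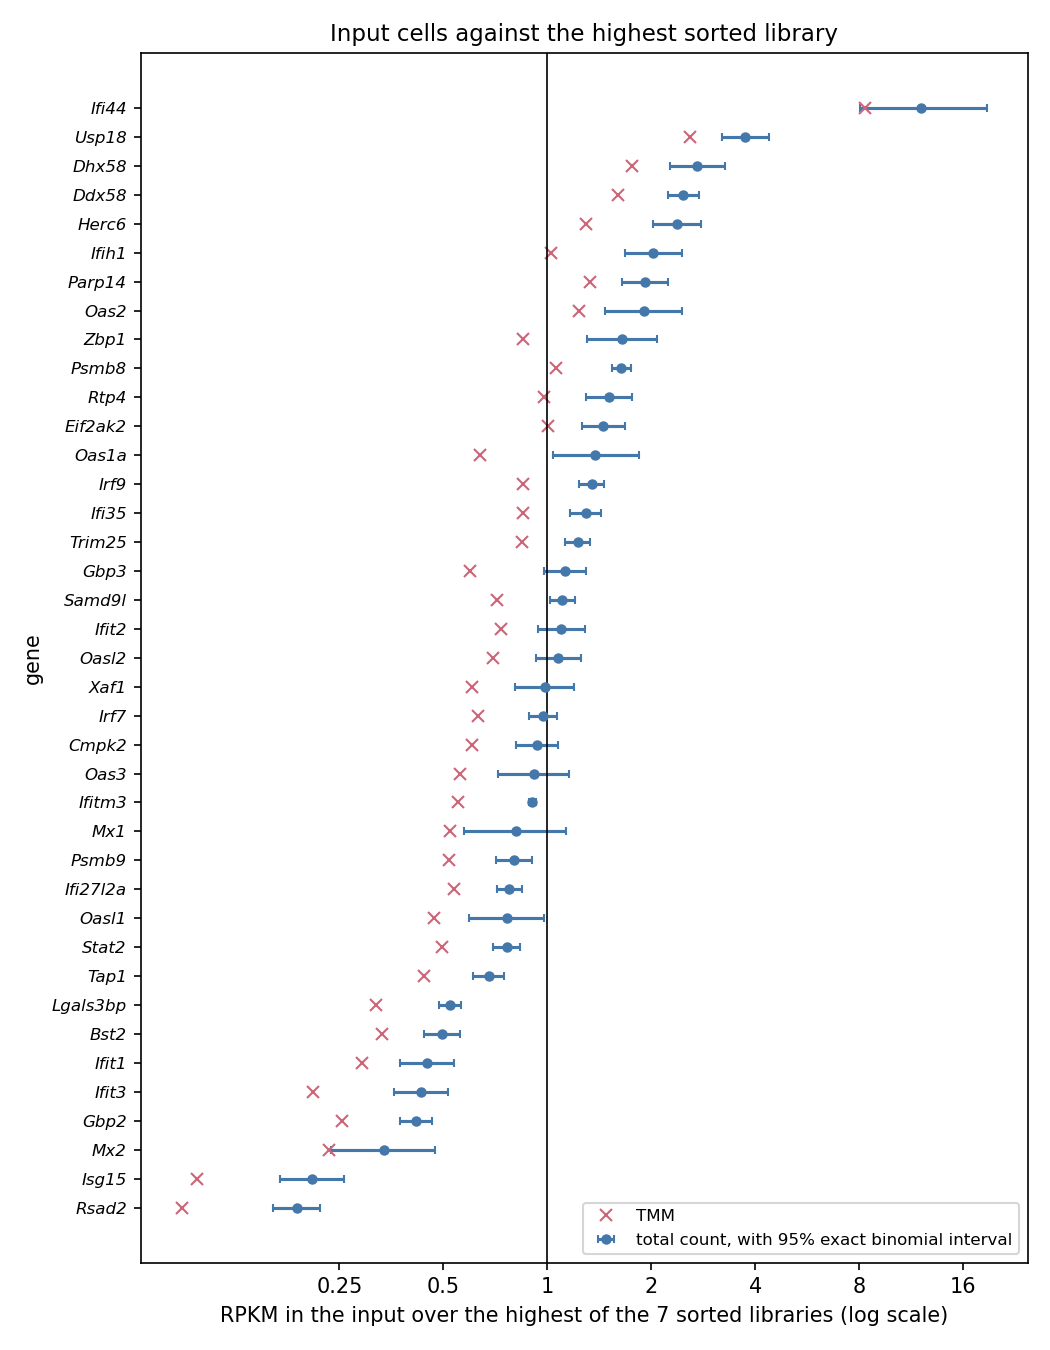
For each of the 39 genes (rows), the RPKM in the input over that in the highest of the 7 sorted libraries is shown on a log axis, with circles for scaling by the total count with 95% exact binomial intervals and crosses for TMM. Ifi44 and Usp18 lie to the right and Isg15 and Rsad2 to the left of 1 under both scalings, whereas Irf9, Ifi35 and Trim25 change sides.

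Ifi44 was at 0.175, 0.0708, 0.0602, 0.125, 0.0636, 0.0464 and 0.128 in clusters 1 to 7 and 2.11 in the input. The input was 12.1 times the highest sorted library (8.04 to 18.8), or 8.34 under TMM. Its level in the input, 2.11, was nevertheless below the 2.75 of the olfactory receptor genes there, and the part of that background in the ratio was not tested. Usp18 in the input was 3.75 times cluster 1 (3.21 to 4.39), or 2.59 under TMM. Dhx58, Ddx58, Herc6 and Ifih1 were also over 2 times the highest sorted library under the total count, but at 1.76, 1.60, 1.29 and 1.03 times it under TMM. Herc6 and Ifih1 in the input, at 2.03 and 1.52, were below the olfactory receptor value as well. At the other end, Rsad2 in the input was 0.189 times cluster 5 (0.161 to 0.220), Isg15 0.209 times cluster 5 (0.168 to 0.257), and Mx2 0.338 times cluster 1 (0.237 to 0.473). These 3 genes were below the highest sorted library but not below all of them under the total count, as Rsad2, Isg15 and Mx2 in the input had ranks 6, 7 and 5 among the 8 libraries, counted from the highest. Summed over each list, macrophage, monocyte and plasmacytoid dendritic cell transcripts were highest in the input under the total count. This did not hold for every gene of the lists. The macrophage genes C1qa, C1qb, C1qc, Cd163, Fcgr1 and Mertk and the monocyte gene F13a1 were each higher in a sorted library than in the input. The 10 macrophage genes summed to an RPKM of 30.0, 25.4, 21, 37.2, 39.7, 38 and 89.4 in clusters 1 to 7 and 103 in the input, all with at least 3 counts in each library and Cd68 the most abundant (C1qb in cluster 1). The 4 monocyte genes, with Ly6c2 or F13a1 the highest, summed to 85, 92.4, 180.3, 107, 66.6, 119 and 195 in clusters 1 to 7 and 361 in the input. The 5 plasmacytoid dendritic cell genes, with Cox6a2 the highest in the sorted libraries and Siglech in the input, summed to 8.22, 8.69, 6.23, 6.47, 6.95, 7.27 and 10.6 in clusters 1 to 7 and 17.7 in the input. Cluster 7 came next to the input for each of these lists and for the 4 genes of all blood cells, and cluster 6 was the lowest for none of them. Under TMM cluster 7 was above the input for the macrophage genes, at 86.4 against 64.2, and for the 4 genes of all blood cells, at 274 against 228. The part of blood cells in the levels of cluster 7 and the input was not tested.

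A second list of 83 interferon pathway genes, none of them among the 39, was read in the same way, and 52 passed the filter on RPKM in the sorted libraries. Interferon transcripts themselves had few counts. Of 19 ligand genes, 0, 0, 4, 2, 1, 1 and 3 had at least 3 counts in clusters 1 to 7, and 10 had in the input. Summed over the 19 genes, clusters 1 to 7 held 6, 2, 26, 22, 4, 8 and 15 counts and the input 198. Ifnb1, interferon beta, had 60 counts in the input and 2, 8 and 4 counts in clusters 1, 3 and 7. It had 0 in clusters 2, 4, 5 and 6, where 0 counts allow an RPKM of up to 0.158, 0.123, 0.312 and 0.126. The RPKM of Ifnb1 was 3.97 in the input, where the olfactory receptor genes reached 2.75 at their 95th percentile.

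The receptors for type I interferons and for interferon gamma were expressed throughout. Ifnar1 was at 10.9, 8.0, 9.79, 8.39, 3.05, 8.04 and 13.4 in clusters 1 to 7 and 16 in the input. Ifnar2, its partner for type I interferons, was at 23.7, 15.6, 25, 32.5, 16.2, 16.3 and 31.9 in clusters 1 to 7 and 36 in the input. Ifngr1, the ligand-binding chain for interferon gamma, was at 52.1, 23.8, 37, 48.7, 18.5, 34.6 and 79.3 in clusters 1 to 7 and 92.5 in the input. Cluster 7 and the input were highest for Ifnar1 and Ifngr1 under the total count, and cluster 5 was lowest. Ifnlr1, the receptor chain for interferon lambda, stayed at or below 0.680 in the sorted libraries. Irf1, an early target of interferon gamma and a transcription factor, was at 137, 37.4, 51.3, 100.5, 33.1, 27.4 and 139 in clusters 1 to 7 and 116 in the input. Cxcl10, a chemokine that draws T cells, was at 40.1, 8.16, 9.55, 47.3, 13.5, 4.08 and 34.5 in clusters 1 to 7 and 27 in the input. Iigp1, a GTPase that acts on parasite vacuoles, was at 3.63, 2.91, 2.15, 7.62, 4.34, 0.880 and 10.1 in clusters 1 to 7 and 1.45 in the input. Irf1, Cxcl10 and Iigp1 were all lowest in cluster 6. Ciita and Nlrc5 were highest there of the sorted libraries, at 0.481 and 0.825, but neither passed the filter on RPKM. In cluster 7 they were close behind, at 0.464 and 0.765. Of the 52 genes of this list past the filter, 13 were lowest in cluster 6 under the total count, against 25.5% of all genes. Under TMM 11 were, against 17.2%. The summed RPKM of 7 immediate early genes, which respond quickly to handling and were led by Fos, was 5782, 2705, 3797, 5215, 1761, 2349.8 and 5692 in clusters 1 to 7 and 5122 in the input. Clusters 1, 4 and 7 were the highest 3 sorted libraries for these genes, for Irf1 and for Cxcl10, and the part of handling in these levels was not tested. Of the inhibitors, Socs1, a blocker of the receptor kinases, was at 62.9, 57.1, 41.1, 68.2, 26.9, 20.4 and 55.9 in clusters 1 to 7 and 43.6 in the input. Socs3, which blocks mainly cytokine receptors of the gp130 family, was at 329, 175, 218, 336, 111, 178 and 431 in clusters 1 to 7 and 246 in the input. The lowest level of Socs1 was in cluster 6 and that of Socs3 in cluster 5.

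Of the 52 genes of this second list, 45 differed over 2-fold between sorted libraries, against the 70.6% of all genes given above. Cluster 7 was highest for 30 under the total count and 27 under TMM, against 25.3% and 17.7% of all genes. It was over 2-fold above the median of the other 6 sorted libraries for 17, against 6.76%. Those 17 included Ptpn6, which is mostly a blood cell gene, and the MHC class II genes Cd74, H2-Aa, H2-Ab1 and H2-Eb1, which antigen-presenting cells carry. Cd74 was at 70.8, 68.1, 35.8, 88.4, 55.3, 91.4 and 212 in clusters 1 to 7 and 394 in the input. B2m, the invariant chain of MHC class I, was at 483, 342, 634, 851, 495, 479 and 955 in clusters 1 to 7 and 1131 in the input. Cluster 6 was over 2-fold below the median of the other 6 for 8 of the 52 (Irf1, Socs1, Ube2l6, Cxcl9, Cxcl10, Iigp1, Psmb10 and Psme2), against 10.4% of all genes. Cluster 5 was so for 8 (Ifnar1, Ifngr1, Ifngr2, Irf1, Irf5, Socs1, Socs3 and Tap2), against 13.1%.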

How the data were processed

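RNA-seq libraries of 7 sorted populations and 1 input were analysed, with 1 library each. The authors deposited raw read counts per gene, with exon positions and exon lengths. Their methods name polyA selection, trimming, and alignment by TopHat2 to mm9 in Partek Flow 2.2. The coordinates in the files are those of GRCm38, since 96.2% of 23289 symbols start within 10000 bases of their RefSeq GRCm38.p6 position. The counting tool, the strand setting and the treatment of shared reads are not given in the sources used here.

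RPKM was computed from the counts and exon lengths, by the sum of all gene counts of a library. Genes with RPKM above 2 in at least 1 library compared were tested, a difference was counted past 2-fold on RPKM + 1, and edgeR 4.0.16 and DESeq2 1.42.0 gave scaling factors only. With 1 library per population no test was possible. Ratios of counts have 95% exact binomial intervals, RPKM values exact Poisson ones and shares of counts Wilson ones. The fold calls were tried on simulated counts in which 200 well-expressed genes were raised in cluster 6. All 200 were called above the median of the other 6 sorted libraries, as were 6 other genes. Lowered genes and genes of low level were not simulated. The 39 genes, the second list and the marker lists were chosen with earlier results of these data known. The named genes come from these lists, and those with printed promoters were picked after their levels were seen. Identity between transcripts was taken from GENCODE vM1, counting alignments of at least 200 bases at 95% identity. The scRNA-seq and ATAC-seq of the study were not used here.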

Additional observations from a re-analysis of the deposited data

How the results depend on the processing

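No paired analysis was possible because every group held a single library, and no replicate could be left out. Scaling by DESeq2 size factors, by TMM, or by a total that leaves out Rn18s-rs5, Lars2 and mmu-mir-689-2, a pseudocount of 0.1, no filter, RPKM above 2 in every library compared, and omission of the cluster 5 library were tried, and 70 of 98 values moved by less than 0.1 (log2 medians) or at most 1.5 times (counts). The median of the 39 genes relative to all genes stayed below 0 in cluster 6 (-0.47 to -0.18) and above 0 in cluster 7 (0.31 to 0.50) and the input (0.13 to 0.37). With a pseudocount of 0.1 it was -0.33, 0.51, -0.47 and 0.50 in clusters 2, 5, 6 and 7 and 0.37 in the input. The genes over 2-fold below the median of the others in cluster 6 then numbered 15 in place of 10. Those over 2-fold above the median of the others in cluster 7 numbered 6 in place of 4. Without the filter the median of the 39 genes relative to all genes was 0.17, 0 and -0.42 in clusters 1, 5 and 6 and 0.13 in the input. With RPKM above 2 in every library, which tests fewer genes, it was 0.19, 0, 0.15, 0.24 and 0.44 in clusters 1, 2, 4, 5 and 7. In cluster 5 it was 0.10 under TMM and under DESeq2 and 0.11 without the 3 loci. In cluster 2 it was -0.30 under DESeq2, below the -0.24 of cluster 6. Genes over 2-fold above every sorted library in the input numbered 1 in place of 4 under TMM and under DESeq2, and 0 with the stricter filter. Genes over 2-fold above the median of the others in cluster 7 numbered 2 in place of 4 under TMM, under DESeq2 and with the stricter filter. The stricter filter also left 6 of 10 genes over 2-fold below the median of the others in cluster 6, and 12 of 25 over 2-fold apart among sorted libraries. The shares of all genes past 2-fold under these alternatives are not given here. In alternatives chosen after seeing the data, the genes highest in cluster 7 numbered 12 under DESeq2 and 13 without the 3 loci in place of 20, and 22 without cluster 5, while those lowest in cluster 6 numbered 20 to 23. The causes of these shifts were not tested. Cluster 5 has the smallest total, and Ifi44, Mx1 and Mx2 had 9, 14 and 12 counts in cluster 6, where their RPKM was lowest.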

Other observations

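Ifi27l2b, the near-identical copy of Ifi27l2a, had 124 counts in the input (RPKM 5.63) and at most 6 in a sorted library, whereas Ifi27l2a was at 104 RPKM in the input, within the range of 16.1 to 134 of the sorted libraries. Oas1g, the copy of Oas1a, had 81 counts in the input (RPKM 1.72) and 6 to 16 in the sorted libraries, beside Oas1a at 4.21 in the input and 0.787 to 3.06 in the sorted libraries. Trex1, a DNA-cutting enzyme of the second list, was listed at 0 counts in all 8 libraries, and its exons overlap another gene on the same strand over their whole length.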
